A study of Homo sapiens with 12 samples.

Results

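Transcript clusters without a gene symbol are the parts of the array that measure transcription where the annotation used here names no gene. A transcript cluster is a group of neighbouring exon probe sets that the array design treats as 1 transcribed region, and its ID gives the chromosome in its first digits and a running number after them. Of 67528 clusters in the gene-level table, 42204 had no gene symbol in the platform annotation, and 29869 of these had a mean signal of at least 5 on the log2 scale over the 6 arrays. These 29869 clusters are described here. The other 12335 unnamed clusters had a mean below 5. All IDs end in .hg.1, which is left out below.

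Such clusters can stand for long noncoding RNAs, small RNAs, pseudogenes, repeated sequence or predicted transcripts, and human cells are known to transcribe much of the genome outside protein-coding genes. Many long noncoding RNAs are spliced, and PPIL3, a cyclophilin type peptidyl prolyl isomerase of the nucleus, associates with the splicing machinery. The files give no positions for the clusters, so that none of them can be placed inside an exon, an intron or a UTR here.

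All cells were HEK293T, an established line of human embryonic kidney origin with the large T antigen of SV40, which took up lentivirus and was then kept under puromycin. The PPIL3 knockdown cells carried a stably integrated short hairpin against PPIL3, and the SCR cells carried a scrambled hairpin in its place. Each group had 3 replicates, and total RNA was hybridized to the Affymetrix Human Transcriptome Array 2.0. The labels do not state whether replicates of a group were transduced separately, so that p-values cover the spread between these 6 arrays only, and the effects of a hairpin and of its line cannot be told apart.

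The hairpin is what differs by design between the groups, and that against PPIL3 is therefore shown. The design text gives the DNA of the PPIL3 hairpin, in which capitals mark the sense arm of 21 bases and the rest is the overhang, the loop and the arm of opposite sense.
PPIL3 hairpin: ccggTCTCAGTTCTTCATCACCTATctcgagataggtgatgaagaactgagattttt
RefSeq places PPIL3 on chromosome 2. The sample titles give the hairpin another number than the source names and the design text do, and which number is right cannot be told apart from the labels.

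The PPIL3 cluster itself (TC02002668) followed the labels. Its signal was 7.30, 7.26 and 7.28 in the knockdown and 7.75, 7.81 and 7.81 in SCR, with no overlap. The difference, knockdown minus SCR, was -0.51 on the log2 scale (SE 0.035, limma adjusted p = 0.029). The median signal of the unnamed clusters lay between 6.66 and 6.70 on the 6 arrays. Of 10 markers of HEK293T cells, 9 had a cluster of their own and all 9 had a mean above 7, between 7.72 (PAX2) and 10.88 (VIM, the intermediate filament vimentin). Of 10 markers of other cell types, 9 had one, with means between 4.17 (DCN, the matrix proteoglycan decorin) and 7.61 (CD79A, a part of the B cell receptor), and 3 were above 7.

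The unnamed clusters were dimmer than the named ones. Their median signal was 6.68, against 7.90 for the 21120 clusters with 1 symbol and 8.09 for the 1396 with several, all with the same minimum of 5. The middle 50% of unnamed clusters lay between 5.88 and 7.73. A signal of at least 10 was found in 1413 of them (4.73%), against 1581 (7.49%) of the clusters with 1 symbol. The highest signal was 14.29 among the unnamed clusters and 14.12 among those with 1 symbol. A signal is a hybridization value that depends on the probes, so that an order of signals is not an order of RNA amounts.

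Replicates of unnamed clusters also lay further apart. The SD within groups, pooled over both, had a median of 0.082 in the unnamed clusters and 0.053 in those with 1 symbol. The gap was present at every level of signal, with 0.085 against 0.057 between a signal of 5 and 6 and 0.078 against 0.052 between 9 and 10. Clusters built on few probes were part of this group. A set of 8062 unnamed clusters (27.0%) carried on all 6 arrays exactly the values of 1 exon probe set of the probe set table, which is a single short stretch of probes, and their median SD was 0.10. The 20668 unnamed clusters whose values matched no exon probe set had a median SD of 0.073.

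**Figure D1:**
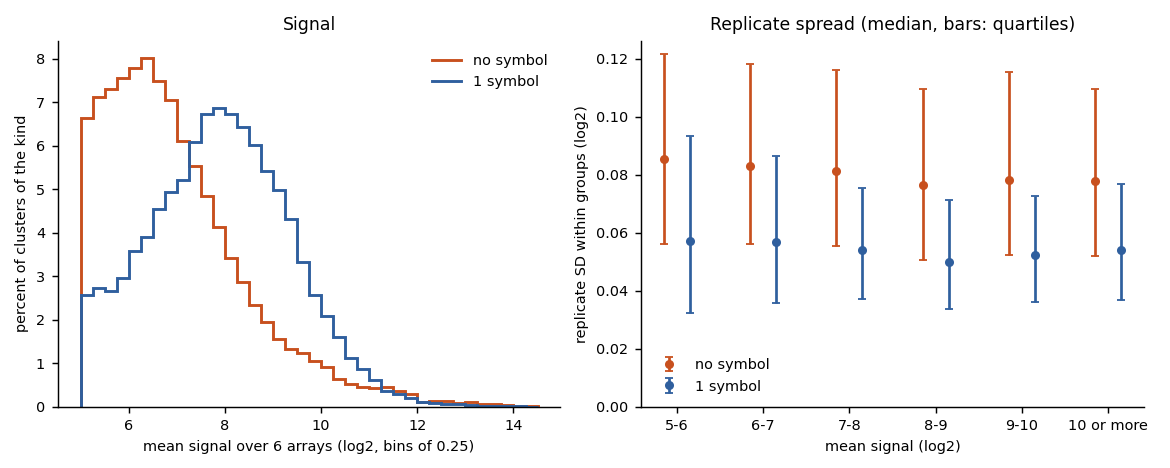
Left, mean signal over the 6 arrays (log2, x axis) of clusters with no symbol and with 1 symbol, as percent of each kind (y axis). Right, pooled within-group SD of replicates (log2, y axis) in bins of mean signal (x axis), with points at the median and bars over the quartiles; the median of the unnamed clusters is higher in every bin, 0.085 against 0.057 in the lowest.

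Numbers of unnamed clusters by chromosome ran from 2948 on chromosome 1 and 2337 on chromosome 2 to 424 on chromosome 18, 136 on Y and 22 on M. Of the 29869, 29558 carried the digits of chromosomes 1 to 22, X, Y or M, 271 those of alternative haplotypes (263 of them of chromosome 6, where the MHC lies) and 40 those of random or unplaced sequences. On chromosomes 1 to 22 and X, the share of all clusters that had no symbol lay between 41.8% on chromosome 19, which is rich in genes, and 70.9% on chromosome 21. The median signal lay between 6.43 on chromosome 13 and 7.31 on chromosome 16. On the same chromosomes, a signal of at least 10 was most frequent on 19 (8.10% of its unnamed clusters), 15, 7 (7.71%) and 16 (7.46%), and least frequent on chromosome 18 (1.65%).

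The IDs themselves fell into 2 kinds of place. On each of 24 chromosomes there was 1 long stretch of consecutive IDs without any symbol, of 122 to 2160 clusters, and these stretches held 16156 of the unnamed clusters described here (54.7% of those on the 24 chromosomes). The other 13380 had IDs among those of named clusters. Ahead of the stretches, clusters with 1 symbol followed each other in RefSeq gene order in 20718 of 20928 consecutive pairs. The median signal of unnamed clusters was 6.65 in the stretches and 6.72 among named clusters, with median replicate SDs of 0.077 and 0.088.

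Copies were frequent. The 29869 clusters held 28890 distinct sets of 6 values, because 1320 of them (4.42%) belonged to 341 sets with exactly the same values on all arrays, and 142 of these sets spread over more than 1 chromosome name. The largest, which begins with TC01001060, had 35 copies under 13 names, among them 1, 2, 4, 9, 14, 15, 18, 21, 22 and Y. Its signal was 9.03, 8.77 and 9.15 in the knockdown and 9.01, 9.16 and 9.27 in SCR, which overlap. A set of 17 copies on chromosomes 5 and 22 (first ID TC05000312) was at 9.36, 9.41 and 9.50 in the knockdown and 9.48, 9.41 and 9.58 in SCR. Chromosome digits of such clusters name 1 of several places that the same probes fit.

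A few unnamed clusters could be tied to a name through identical values. The values of 54 were the same as those of a cluster with symbols, among them the microRNA gene MIR3675, SNORA11E (an H/ACA small nucleolar RNA by its symbol) and the antisense transcripts TRIM31-AS1, MDC1-AS1 and EHMT2-AS1. Of the 22 distinct values behind these 54, none passed the test, with adjusted p-values of 0.25 and above. The copy of RNU1-10P, a U1 small nuclear RNA pseudogene (TC01003143, mean signal 12.50), differed by 0.34 (limma adjusted p = 0.25).

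Of the 8062 unnamed clusters with the values of exactly 1 exon probe set, 14 shared them with a probe set that has symbols in the annotation of the probe set table. The MIR548 family, a large primate family of microRNAs derived from a DNA transposon, gave 7 of these. Their mature sequences are shown because they are the only microRNAs that unnamed clusters were tied to in this way by a single symbol. Capitals mark the seed, bases 2 to 8, through which a microRNA pairs with its targets.
hsa-miR-548u: cAAAGACUgcaauuacuuuugcg
hsa-miR-548ae-3p: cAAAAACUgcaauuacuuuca
hsa-miR-548w: aAAAGUAAcugcgguuuuugccu
Sequences are from RefSeq (GRCh38.p14), where hsa-miR-548u lies at chr6:57390180-57390202 on the plus strand, hsa-miR-548ae-3p at chr5:58530047-58530067 on the minus strand and hsa-miR-548w at chr16:26025246-26025268 on the plus strand. The seeds of all 3 differ. The IDs put the clusters elsewhere in most cases: MIR548U was the symbol of TC06002038, TC01001159 and TC01001170, MIR548W that of TC01000083 and MIR548AE2 that of TC13000377. Of the 12 clusters whose probe set had a single symbol, 6 had the same chromosome in RefSeq and in the ID.

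The clusters of the MIR548 family differed little between the groups. TC06002038, with the symbol MIR548U, was at 9.64, 9.73 and 9.91 in the knockdown and 9.67, 9.79 and 9.92 in SCR. Across the 7 clusters the differences lay between -0.055 and 0.033 on the log2 scale, and the adjusted p over all 14 tied clusters was at least 0.25. The lowest of these was that of TC04000981, whose probe set carries the symbol of the U7 small nuclear RNA pseudogene RNU7-33P. Its signal was 6.71, 6.57 and 6.71 in the knockdown and 6.93, 6.83 and 6.86 in SCR, lower in 3 of 3 arrays, with a difference of -0.21 (limma adjusted p = 0.25).

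The knockdown was set against SCR for all 52385 clusters with a mean of at least 5, named and unnamed, in 1 limma fit. Among the 29869 unnamed clusters, 9 were called higher (0.0301%) and 5 lower (0.0167%) at a Benjamini-Hochberg adjusted p below 0.05. Over all clusters tested, 0.0363% were called higher and 0.0248% lower, so that the share of unnamed clusters called was not above the background in either direction. The calls did not hold when an array was left out: without any 1 of the 6 arrays, limma called 0 unnamed clusters, with 2045 to 4395 of them at an unadjusted p below 0.05. The matching shares of all clusters without 1 array were not counted. With all arrays an unadjusted p below 0.05 was found for 3157 unnamed clusters (10.6%), against 11.4% of all clusters.

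TC08001843 had the smallest p of the unnamed clusters and the largest called difference. Its signal was 9.41, 9.39 and 9.48 in the knockdown and 8.34, 8.49 and 8.47 in SCR. The lowest knockdown array was 0.90 above the highest SCR array. The group means were 9.43 ± 0.049 and 8.43 ± 0.083 (SD, n = 3 each), a difference of 0.99 on the log2 scale (SE 0.053, limma adjusted p = 0.017), close to a doubling of the signal. Without 1 array the difference was between 0.95 and 1.02, but the adjusted p was 0.081, 0.10 and 0.14 without knockdown array 1, 2 or 3 and 0.10, 0.11 and 0.22 without SCR array 1, 2 or 3.

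The files used here place TC08001843 only by its chromosome digits and its ID number. It lies in the long unnamed stretch of its chromosome, with the nearest clusters with 1 symbol 78 IDs before it (ZNF252P, difference -0.22, adjusted p = 0.49) and 735 IDs after it (LEPROTL1, difference -0.016, adjusted p = 0.92). Its direct neighbours did not pass the test either, with differences of 0.11 for TC08001842 (adjusted p = 0.71) and 0.23 for TC08001844 (adjusted p = 0.49). Exon probe sets were numbered in the same order as clusters in 14740 of 14746 consecutive pairs of clusters with 1 matching probe set. Between the matched clusters on either side of it, TC08001821 and TC08001844, lie 129 exon probe sets and 22 clusters. The last 4 of these probe sets, PSR08023985 to PSR08023988, had the only differences above 0.5, of 1.23, 1.26, 0.87 and 0.68. PSR08023986 was at 10.40, 10.42 and 10.48 in the knockdown and 9.17, 9.19 and 9.16 in SCR, and in all 4 the groups did not overlap. The other 125 lay between -0.31 and 0.46. The groups also did not overlap in some of these, such as PSR08023971 (difference 0.46), PSR08023984 (0.29) and PSR08023963 (-0.24), so that a lack of overlap alone does not set the 4 apart. The files do not say which probe sets make up TC08001843, and these values of the same arrays were not tested.

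The other 8 clusters called higher differed by 0.35 to 0.63, all with adjusted p-values between 0.045 and 0.049, just inside the threshold. TC0X001723 was at 6.22, 6.20 and 6.23 in the knockdown and 5.55, 5.71 and 5.48 in SCR, a difference of 0.63 (SE 0.061). TC02003658 was at 6.695, 6.601 and 6.726 in the knockdown and 6.120, 6.111 and 6.005 in SCR, a difference of 0.60. TC02000969 was at 6.72, 6.65 and 6.82 in the knockdown and 6.12, 6.04 and 6.19 in SCR, a difference of 0.61 (SE 0.060). It is the only one of the 9 that lies between named clusters, next to TANK, an adaptor of the NF-kappaB and interferon pathways (difference 0.089, adjusted p = 0.52), and PSMD14, the deubiquitinase of the proteasome lid (difference 0.052, adjusted p = 0.73). TC04002523 (8.37, 8.41 and 8.30 in the knockdown, 7.84, 7.90 and 7.84 in SCR) and TC04002887 (7.58, 7.60 and 7.57 in the knockdown, 7.20, 7.21 and 7.16 in SCR) carry the same chromosome digits. TC19002457, TC16001983 and TC02003666 differed by 0.46, 0.35 and 0.46.

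The 5 clusters called lower differed by -0.59 to -0.44. TC0X001748 was at 8.30, 8.43 and 8.38 in the knockdown and 8.92, 8.98 and 8.98 in SCR, a difference of -0.59 (SE 0.046, limma adjusted p = 0.045). TC01004217 was at 5.63, 5.60 and 5.52 in the knockdown and 6.14, 6.17 and 6.06 in SCR, and TC14001732 at 8.71, 8.69 and 8.69 in the knockdown and 9.13, 9.30 and 9.22 in SCR. TC16001792 differed by -0.46. TC07001221 was at 9.39, 9.45 and 9.44 in the knockdown and 9.87, 9.88 and 9.84 in SCR, a difference of -0.44 (SE 0.035, limma adjusted p = 0.045). In ID order it stands 2 after HOXA2, a homeobox gene of hindbrain and neural crest patterning (difference -0.16, adjusted p = 0.52), and 8 before EVX1-AS (difference 0.028, adjusted p = 0.80). The unnamed cluster after it, TC07001222, differed by -0.19 (adjusted p = 0.23).

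**Figure D2:**
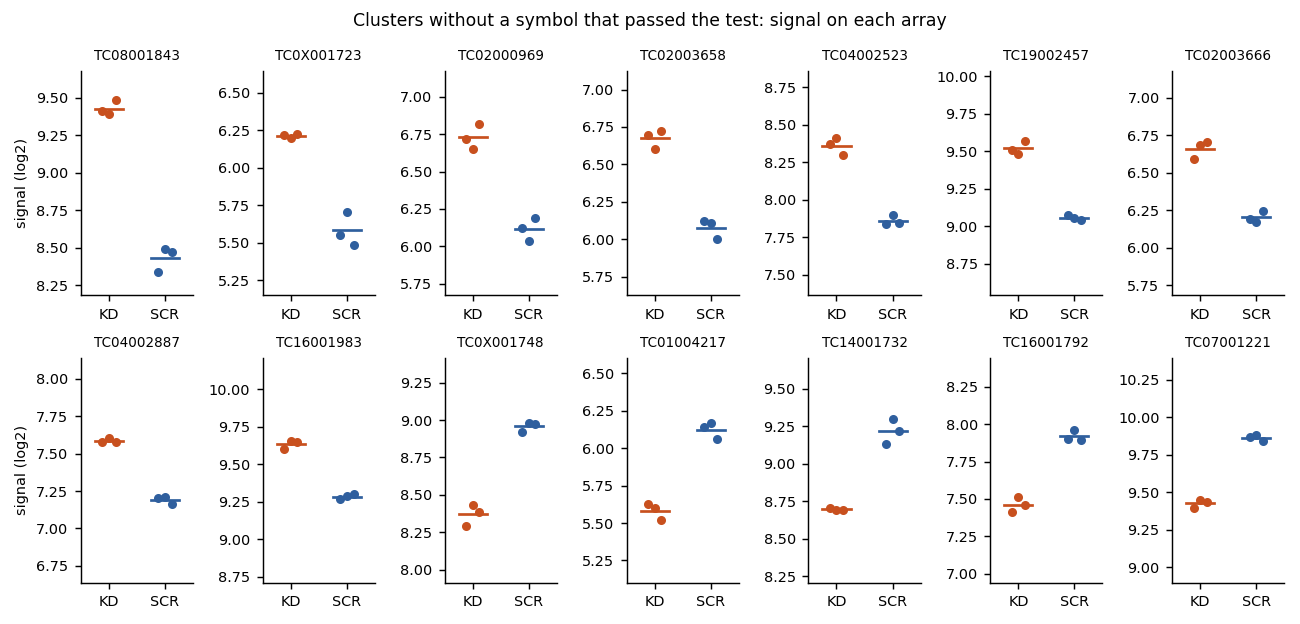
Signal (log2, y axis) of the 14 called clusters on each array, with PPIL3 knockdown (KD) left of SCR in each panel; points are arrays, lines are group means, and each panel spans 1.5 log2 units. The 9 clusters from TC08001843 to TC16001983 are higher in the knockdown, the last 5 are lower, and in none do the groups overlap.

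The 14 called clusters came from 9 chromosomes. Of them, 12 lay in the long unnamed stretches and 2 between named clusters, where the stretches held 54.7% of the unnamed clusters of the numbered chromosomes, X and Y, and the difference between these shares was not tested. Of the 14, 4 carried the values of a single exon probe set, 5 had a mean signal below 7, and none had a copy. Other clusters lay just outside the threshold. TC16001242 was at 11.96, 12.04 and 12.13 in the knockdown and 11.40, 11.49 and 11.55 in SCR, a difference of 0.56 (limma adjusted p = 0.070). TC01001127 was at 8.49, 8.62 and 8.36 in the knockdown and 7.82, 7.59 and 7.77 in SCR (0.77, adjusted p = 0.075). TC04002627 differed by 0.41 (adjusted p = 0.067). Of the lower ones, TC07002574 differed by -0.37 (adjusted p = 0.075) and TC05002180 by -0.41 (adjusted p = 0.082).

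Without a test threshold, all 3 knockdown arrays lay above all 3 SCR arrays in 1843 unnamed clusters (6.17%) and below them in 2377 (7.96%), against 8.01% and 8.81% of all clusters. The clusters with 1 symbol had 10.5% above and 9.66% below. The median difference of the unnamed clusters was -0.012 and that of all clusters -0.0091. A difference of at least 1.5-fold in either direction was found in 65 unnamed clusters (0.218%), of which the groups did not overlap in 32 (0.107% of all unnamed clusters). In the 21120 clusters with 1 symbol it was found in 30 (0.142%), of which the groups did not overlap in 27 (0.128%), and in all 52385 clusters in 99 (0.189%), without overlap in 62 (0.118%). At 2-fold these numbers were 5 and 3 of the 29869 unnamed clusters, 3 and 3 of the 21120 with 1 symbol and 8 and 6 of all 52385.

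The balance of higher and lower clusters varied by chromosome. On chromosome 22, 1.51% of unnamed clusters lay above SCR and 9.55% below, and on chromosome 19 2.63% above and 11.8% below. Chromosomes 15 (12.4%), 7 (11.3%) and 10 (10.7%) also had large shares below. The largest shares above SCR were on X (10.3%), 13 (9.37%) and 4 (8.51%). Clusters with 1 symbol had 3.25% above and 13.4% below on chromosome 22, 24.5% above and 4.07% below on chromosome 4, and 11.2% above and 7.59% below on chromosome 15. Over the 23 chromosomes 1 to 22 and X, the median differences of unnamed and of 1-symbol clusters had a Pearson r of 0.84 and a Spearman rho of 0.76; both kinds were measured on the same 6 arrays, and the medians of the unnamed clusters lay only between -0.032 on chromosome 22 and 0.0035 on chromosome 4. Median differences below 0 were found on 20 of 23 chromosomes. The median over all unnamed clusters, -0.012, was smaller in size than the spread of array medians within groups (pooled SD 0.016).

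**Figure D3:**
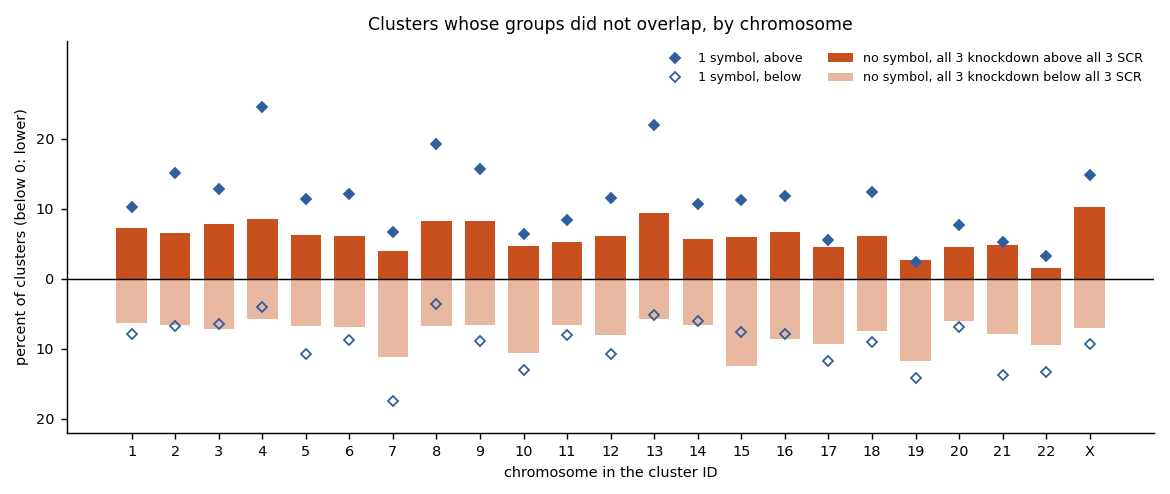
Percent of clusters (y axis) whose 3 knockdown arrays all lay above (upward) or below (downward) the 3 SCR arrays, by chromosome in the ID (x axis); bars are unnamed clusters and diamonds clusters with 1 symbol. Unnamed clusters reach 10.3% above on X and 12.4% below on chromosome 15, and only 1.51% lie above on chromosome 22.

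Part of the share of chromosome 15 came from 1 run of neighbours. The longest run of unnamed clusters with consecutive IDs and a mean of at least 8 was TC15002015 to TC15002053, 39 clusters with 13 distinct sets of values and means of 10.08 to 12.31. All 13 were lower on average in the knockdown, by 0.24 to 0.33 in size, and in 12 of 13 the groups did not overlap, where 8.81% of all clusters lay below SCR on all arrays. TC15002016 was at 12.20, 12.18 and 12.12 in the knockdown and 12.48, 12.44 and 12.47 in SCR, a difference of -0.29 (limma adjusted p = 0.083). TC15002020, with 10 copies in the run, was at 10.89, 11.12 and 10.93 in the knockdown and 11.26, 11.35 and 11.30 in SCR, a difference of -0.32 (adjusted p = 0.20). None of the run passed the test, with adjusted p-values of 0.082 to 0.52. Its values also stand elsewhere on the chromosome: TC15002021 in the run and TC15000958, which lies between MEF2A and ASB7 in ID order, had the same values. The last cluster with 1 symbol before the run, TARS3, a threonyl-tRNA synthetase, differed by 0.070 (adjusted p = 0.63).

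The next longest runs held 19 clusters on chromosome 1 and 11 clusters each on chromosomes 7 and M. That on chromosome 1 lay the other way. TC01003426 to TC01003444 are 19 clusters with 9 distinct sets of values and differences of 0.080 to 0.52, and the groups did not overlap in 3 of the 9, all higher, where 8.01% of all clusters lay above SCR on all arrays. TC01003443, the largest, was at 12.11, 12.20 and 12.28 in the knockdown and 11.60, 11.65 and 11.78 in SCR (difference 0.52, limma adjusted p = 0.082). The same values stand under 6 IDs on chromosomes 1, 2, 6, 16 and 17, where TC16001243 is the direct neighbour of TC16001242, between VAC14 and HYDIN. In TC01003432 the values were 11.33, 11.80 and 11.16 in the knockdown and 11.38, 11.25 and 11.36 in SCR, which overlap. A shorter run, TC01001389 to TC01001398, was named after its values were seen. It holds 10 clusters between SDHC and FCGR2A in ID order with 3 distinct sets of values. All 3 sets were higher in the knockdown, by 0.45, 0.53 and 0.46 (limma adjusted p 0.34, 0.083 and 0.12). The first set, that of TC01001389, has exactly the values of TC01003444 in the longer run, so that the runs share this measurement. The run TC07001518 to TC07001528 between NCF1C and FKBP6P2 held 11 clusters with 6 distinct sets of values and differences of -0.32 to 0.11. In 3 of the 6 all knockdown arrays lay below all SCR arrays, where 8.81% of all clusters did. On chromosome 7 as a whole, 11.3% of unnamed clusters and 17.5% of those with 1 symbol lay below. The run on chromosome M, TC0M000002 to TC0M000012, had 11 distinct sets of values with differences of -0.15 to 0.069. In 1 of the 11 all knockdown arrays lay below all SCR arrays, and in 0 above.

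**Figure D4:**
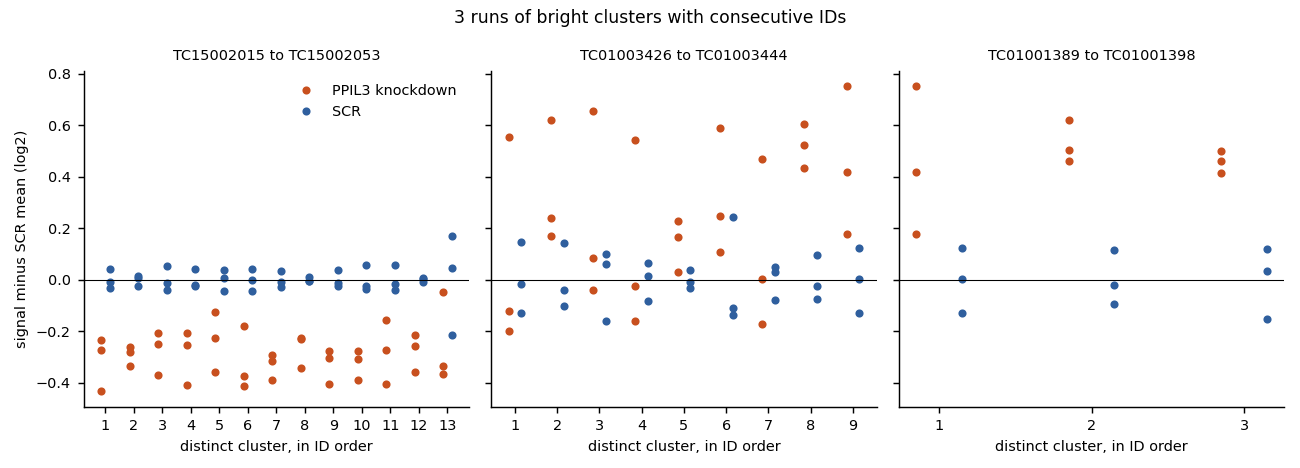
Signal of each array minus the SCR mean of the same cluster (log2, y axis) for the distinct clusters of 3 runs with consecutive IDs (x axis, in ID order), PPIL3 knockdown points left of SCR points. The chromosome 15 run lies 0.24 to 0.33 below SCR on average, and the 3 distinct clusters of the shorter chromosome 1 run 0.45 to 0.53 above. TC01003444 of the longer chromosome 1 run and TC01001389 of the shorter one have the same values.

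None of the brightest unnamed clusters passed the test. TC09000936, between PLIN2 and RPS6 in ID order, had the highest mean, 14.29, with 14.29, 14.37 and 14.32 in the knockdown and 14.22, 14.28 and 14.29 in SCR (difference 0.063, adjusted p = 0.60). Among the 12 brightest, counting copies once, were 6 with the digits of chromosome M, the mitochondrial genome, as well as TC14001108, TC01002863, TC02002617, TC12000363 and a set of 5 copies that begins with TC02000740. The differences of all 12 lay between -0.062 and 0.063, and their adjusted p-values were at least 0.60. TC14001108, which stands 3 IDs after POLE2, was at 14.11, 14.17 and 14.15 in the knockdown and 14.07, 14.11 and 14.13 in SCR.

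Chromosome M was the only one on which no cluster had a symbol. All 22 of its clusters were above the minimum, with means of 10.23 to 14.24, and it held 16 of the 86 unnamed clusters with a mean of at least 13. The mitochondrial genome encodes subunits of the respiratory chain with the ribosomal and transfer RNAs to make them, and which of these a cluster measures is not given. The differences of the 16 brightest lay between -0.050 and 0.069. TC0M000012, the brightest, was at 14.17, 14.37 and 14.12 in the knockdown and 14.21, 14.23 and 14.30 in SCR. TC0M000019 stood apart, with 9.16, 9.63 and 10.53 in the knockdown and 10.50, 10.90 and 10.67 in SCR. The highest knockdown array overlaps with SCR, and the difference of -0.92 (SE 0.33) had an adjusted p of 0.38. The other 21 lay between -0.16 and 0.11, 0 of the 22 passed limma's test, and 2 had an unadjusted p below 0.05.

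Some of the largest mean differences that did not pass the test, named after their values were seen, had uneven replicates and others did not. TC04000880 was at 8.02, 8.36 and 8.18 in the knockdown and 7.54, 7.35 and 7.34 in SCR, without overlap (difference 0.77, limma adjusted p = 0.083). TC02001958, which has a copy on chromosome 16, was at 8.88, 8.67 and 9.94 in the knockdown and 7.99, 7.86 and 8.02 in SCR (difference 1.21, SE 0.31, limma adjusted p = 0.26). The groups did not overlap, and knockdown array 3 was more than 1 log2 unit above the other 2. TC15000503 was at 6.77, 6.60 and 6.40 in the knockdown and 5.37, 4.89 and 6.65 in SCR, which overlap. TC17001332 and TC17001274 were lower in all 3 knockdown arrays, with differences of -1.08 and -0.94 (limma adjusted p 0.32 and 0.34). The first was at 5.31, 3.85 and 4.64 in the knockdown and 5.55, 5.81 and 5.68 in SCR. Their knockdown means, 4.60 and 4.86, lay below the minimum of 5. Both passed this minimum only through SCR, with means of 5.68 and 5.80, so that their place among the falls depends on the filter.

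The unnamed clusters with the widest replicates split the arrays across the groups. TC06003702 was at 6.48, 6.36 and 9.97 in the knockdown and 6.10, 10.30 and 10.23 in SCR, so that knockdown array 3 stood with SCR arrays 2 and 3, more than 3 log2 units above the others. The 6 clusters with the largest replicate SD all had this pattern: TC06003702, TC10002567, TC10002568, TC18000797, TC01005754 and TC0X001951. TC10002567 and TC10002568 have consecutive IDs, and TC10002567 was at 5.26, 5.61 and 8.83 in the knockdown and 5.003, 8.91 and 8.38 in SCR. TC18000797 was at 7.57, 7.39 and 9.90 in the knockdown and 7.20, 10.40 and 10.62 in SCR.

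A gap of more than 1 log2 unit between knockdown array 3 with SCR arrays 2 and 3 and the other 3 arrays, a rule chosen after these values were seen, was found in 10 unnamed clusters and in none of the 21120 clusters with 1 symbol or the 1396 with several. The other 4 were TC01002064, TC04002546, TC19001925 and TC05002798, and the 10 came from 8 chromosomes. The opposite gap was found in 0 clusters. A gap above 1 between knockdown and SCR was found in 0 unnamed clusters and in 2 with 1 symbol. None of the 10 passed the test between knockdown and SCR, where their differences of -1.27 to -0.59 had adjusted p-values of 0.74 to 0.85. What the 3 arrays share besides this was not tested.

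**Figure D5:**
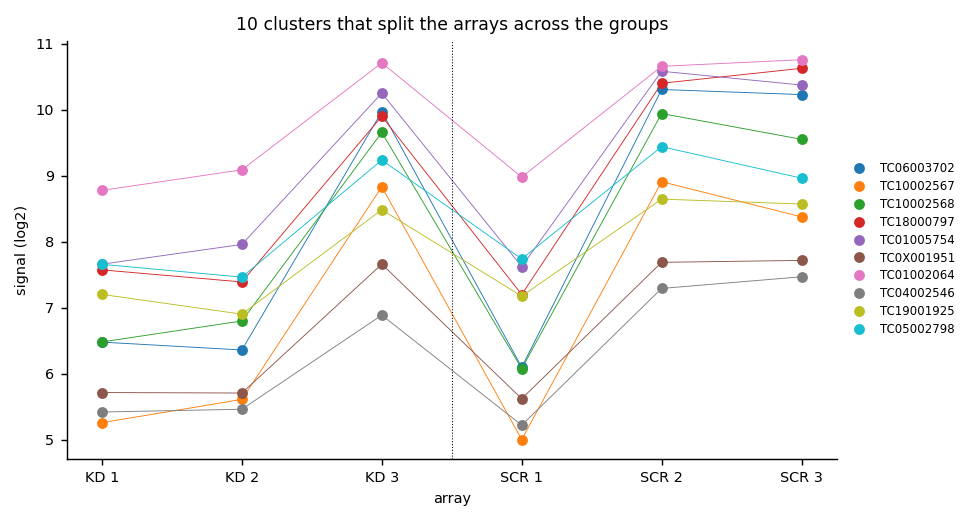
Signal (log2, y axis) of the 10 clusters in which knockdown array 3 and SCR arrays 2 and 3 all lie more than 1 log2 unit above the other 3 arrays (x axis, PPIL3 knockdown arrays KD 1 to 3 left of SCR 1 to 3); lines join the values of 1 cluster. TC06003702 has the widest gap, with 9.97 on knockdown array 3 and 6.48 and 6.36 on the other knockdown arrays.

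Named noncoding RNAs of the same array give a scale for the unnamed clusters. Long intergenic RNAs (427 clusters with a mean of at least 5) and antisense transcripts (630) had median signals of 6.48 and 6.69, near the 6.68 of the unnamed clusters. Of the long intergenic RNAs 3.98% lay above SCR on all arrays and 11.01% below, and of the antisense transcripts 3.81% above and 10.63% below, where the shares of all clusters were 8.01% above and 8.81% below. The microRNA genes (686) had a median replicate SD of 0.096, with 5.10% above and 5.69% below. Small nucleolar and Cajal body RNAs (199), which hold the guides of RNA modification, had 21.6% above and 4.02% below, with a median difference of 0.10. U RNAs (149, by a symbol that begins with RNU) hold RNAs of the spliceosome and also pseudogenes such as RNU1-10P. They had 26.8% above and 4.03% below, with a median difference of 0.20. Of 37 Y RNA clusters 2 lay above and 0 below, with a median difference of 0.14, and of 5 vault RNA clusters 4 lay above and 0 below, with a median difference of 1.04. Against a median replicate SD of 0.082 in the unnamed clusters, these small RNAs had wider replicates. Their median SDs were 0.17 for small nucleolar and Cajal body RNAs, 0.17 for U RNAs, 0.13 for Y RNAs and 0.30 for vault RNAs. In these classes together limma called 0 of 2133 clusters, while 256 had an unadjusted p under 0.05, and the differences between classes were not tested. The corresponding shares of the unnamed clusters were 6.17% above and 7.96% below.

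The minimum of 5 cut through a dense part of the signal range. The 3 unnamed clusters just inside it were TC10002207, TC07002320 and TC01005906, and the 3 just outside were TC02003951, TC15002683 and TC10002783. TC10002207 was at 5.03, 4.98 and 4.98 in the knockdown and 4.99, 5.05 and 4.97 in SCR. TC02003951, just outside, was at 4.87, 4.93 and 5.32 in the knockdown and 4.90, 5.11 and 4.87 in SCR.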

How the data were processed

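Per the labels, the authors labelled total RNA with biotin, hybridized it to the Affymetrix Human Transcriptome Array 2.0 and processed it with RMA in Affymetrix Expression Console. Their versions and the build are not given in the sources. The deposited values are log2 signals after background subtraction, quantile normalization and summary over probes, so that a shift common to all arrays of a group is removed. The 12 samples are 6 arrays summarized at 2 levels: 2995 rows shared by both were identical on each array. Groups and replicate numbers came from the titles. The members and lists were chosen with earlier results of these data known.

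Clusters with a mean of at least 5 over the 6 gene-level arrays were tested two-sided with limma, by lmFit and eBayes, with Benjamini-Hochberg adjustment over all 52385 at 0.05, and the script was tested on simulated data. Named were TC08001843, the largest called changes in each direction (filled up to 12 by the smallest p), the 12 brightest, those beside the minimum, the 6 with the widest replicates, nearest named neighbours in ID order and the longest bright runs. Of 22734 clusters with 1 symbol on the chromosomes, 22431 matched RefSeq. The number of arrays limits the precision. R 4.3.3, limma 3.58.1, data.table (1.17.8), Python 3.11.15, pandas 2.3.3, numpy 2.4.6 and matplotlib 3.10.9 were used. Alternatives were a replicate block, other filters, other scalings, other variance models, array weights and leaving out each array.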

Additional observations from a re-analysis of the deposited data

How the results depend on the processing

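The count of 14 called unnamed clusters rested on few arrays and on the setting. It was 0 with a replicate block (3771 at an unadjusted p below 0.05, limma), 0 without variance moderation (2153), 1 with a minimum mean of 4, 1 with no filter on signal, 1 with robust moderation, 1 when adjusted over the members alone (TC08001843 in each of these 4), 3 after a shift of all arrays to a common median, 26 after quantile normalization (12 of the 14 among them) and 647 with array weights (284 higher and 363 lower, all 14 among them). It was between 0 and 0 without any 1 array. It stayed at 14 with a minimum mean of 6 (12 of the 14 among them) and with identical rows counted once, and was 11 with an intensity trend. The shares of all clusters called under these settings were not counted, so that these counts do not set the unnamed clusters apart from the rest. The causes were not tested.

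The difference of TC08001843 was 0.99 with the replicate block (adjusted p = 0.12) and 0.99 without moderation (adjusted p = 0.14), and between 0.95 and 1.02 without 1 array (adjusted p between 0.081 and 0.22), so that the call was lost in each of these. Its adjusted p lay between 0.0034 and 0.030 under the other alternatives. The deviations of same-numbered arrays had correlations of 0.28, -0.039 and 0.19 over the unnamed clusters. Those of differently numbered arrays lay between -0.28 (knockdown 1 with SCR 3) and 0.12 (knockdown 3 with SCR 2). Whether the replicate numbers pair the arrays cannot be told from these values. The median difference of the unnamed clusters lay between -0.023 and 0.00059 without 1 array. Counts of unnamed clusters without overlap, which need fewer arrays to be in order once 1 is left out, lay between 2401 and 3831 above SCR and between 3466 and 5524 below SCR. The matching shares of all clusters were not counted, so that an excess below SCR is not shown to be particular to the unnamed clusters. For the other named risen and fallen clusters, 226 results kept their side of the threshold, 172 lost the call and 14 gained one. None turned its direction. The kept results include those of 10 clusters that were not called in the main fit and mostly stayed uncalled. All 172 lost results came from the 13 called ones. With the replicate block, without moderation and without any 1 array, all 13 lost the call.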
